A study of Mus musculus with 6 samples.

Results

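The insulin-like growth factor (IGF) axis was followed through 8 genes of the neonatal mouse kidney: the ligand gene Igf1, the receptor gene Igf1r and the binding protein genes Igfbp2, Igfbp3, Igfbp4, Igfbp5, Igfbp6 and Igfbp7. They were taken by gene symbol from a table of 48587 genes, a rule that uses no measured value. All 8 had enough counts to be tested. RNA bound to ribosomes was sequenced in 6 libraries, 3 from neonatal littermate controls (Cdh16Cre;Foxp1fl/+;RiboTag) and 3 from neonatal Foxp1-deficient animals (Cdh16Cre;Foxp1fl/fl;RiboTag). All animals thus carried the Cre driver, the ribosome tag and at least 1 floxed Foxp1 allele, so the controls were heterozygous rather than wild type. RiboTag adds an HA epitope to a ribosomal protein in cells that have had Cre activity, here under Cdh16, a cadherin gene of the kidney tubule, and HA beads pulled the ribosomes out of whole-kidney homogenate. Controls carry the treatment label vehicle and Foxp1-deficient libraries that of chronic acid load, a step absent from the protocols, so genotype and treatment label cannot be told apart. Whether each library came from its own animal was not stated, and p-values measure the spread between libraries, which may be technical.

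IGF1 and IGF2 are secreted growth factors that bind the tyrosine kinase receptor encoded by Igf1r and activate the IRS, PI3K and AKT cascade. In extracellular fluid they are held by IGF binding proteins, which lengthen their stay, carry them or keep them from the receptor, and which proteases such as pappalysins cut to set the ligands free. In the developing kidney the axis supports growth of the nephron and ureteric epithelia, and stromal, vascular and mesothelial cells make many of its secreted parts.

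Where 3 values are given for a group, they follow library numbers 1, 2 and 3. Total counts ran from 9710048 to 18958196, and a gene with no count could still have up to 3, or 0.158 to 0.309 CPM (counts scaled to a common library size), by counting error alone. The libraries numbered 2 stood apart in both groups, with 4.245% and 4.69% of counts in the ribosomal RNA gene Rn18s-rs5 against 0.893% to 1.84% elsewhere. Foxp1, the targeted gene, had 51.4, 26.0 and 40.5 CPM in the controls, against 36.3, 9.17 and 33.7 CPM with Foxp1 deficiency, lower in each pair of equal number but overlapping between groups. Of all genes tested, 17.5% were lower in each pair. Cdh16, the gene of the Cre driver, had 0.35, 9.23 and 48.6 CPM in the controls, against 0.297, 1.96 and 48.5 CPM with Foxp1 deficiency. It had only 5 counts in each library numbered 1. Reads from undeleted exons of the floxed allele also count towards Foxp1, so its values are at most a weak check of the labels. The labelled cell type is kidney tubular cells, yet 10 collecting duct and pan-tubular markers had low sums next to stromal ones in every library. They summed to 126 and 131 CPM in the libraries numbered 3. The lowest sums were 8.47 CPM among controls and 5.87 CPM among Foxp1-deficient libraries. Of those 10 markers, 9 had no count in at least 1 library. The sums of 8 proximal tubule markers ran from 39.3 to 524 CPM. The 10 stromal markers together had 3436 to 22896 CPM, with 21904 and 22896 in the libraries numbered 3. In such bulk RNA, fewer cells of a type and less RNA per cell cannot be told apart.

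Igfbp4, Igfbp5 and Igfbp6 are introduced by sequence, because they were the members with higher values in the Foxp1-deficient library of every pair. The 250 bases upstream of their RefSeq start (GRCm38.p6, each on the strand of its gene) are given in lower case, with capitals marking the TATA box letters TATAAA on either strand.
Igfbp4 at chr11:99040994-99041243, plus strand: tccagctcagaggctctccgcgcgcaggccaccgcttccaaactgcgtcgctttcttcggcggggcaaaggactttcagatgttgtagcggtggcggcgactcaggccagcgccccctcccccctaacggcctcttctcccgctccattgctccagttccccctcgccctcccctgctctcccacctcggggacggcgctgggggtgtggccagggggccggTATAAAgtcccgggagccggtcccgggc
Igfbp5 at chr1:72874866-72875115, minus strand: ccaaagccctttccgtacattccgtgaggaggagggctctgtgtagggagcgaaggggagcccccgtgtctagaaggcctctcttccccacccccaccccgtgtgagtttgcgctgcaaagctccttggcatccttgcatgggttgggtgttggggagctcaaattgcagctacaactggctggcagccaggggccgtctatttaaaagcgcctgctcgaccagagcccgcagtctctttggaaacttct
Igfbp6 at chr15:102143936-102144185, plus strand: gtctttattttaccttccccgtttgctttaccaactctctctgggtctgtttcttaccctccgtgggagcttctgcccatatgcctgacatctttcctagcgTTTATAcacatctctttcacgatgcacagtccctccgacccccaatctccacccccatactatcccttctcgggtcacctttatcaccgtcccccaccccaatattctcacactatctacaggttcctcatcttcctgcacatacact

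The Igfbp4 window held TATAAA on its own strand, beginning 28 bases before the start, and the Igfbp6 window held it on the opposite strand, 148 bases before the start. Of 32851 promoter windows of the same length in the RefSeq table, 12.4% held these letters. The forkhead core TGTTTA, searched on both strands, was in none of the 3 windows and in 12% of all windows. Among the 8 genes, each matched in the table and covered by 9 windows in all, TGTTTA was found once, in the second Igfbp2 window. The GC box GGGCGG, found in 32.7% of all windows, was absent from these 3 windows and present in those of Igf1r, Igfbp7 and the first of Igfbp2. G and C made up 69.2%, 58.8% and 49.6% of the Igfbp4, Igfbp5 and Igfbp6 windows, against a median of 52.4% over all windows. A match of letters describes these windows and says nothing of binding.

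The genes lay on 6 chromosomes in mm10. Igfbp2 (chromosome 1, 72824503 to 72852474, plus strand) and Igfbp5 (chromosome 1, 72857932 to 72874884, minus strand) were convergent neighbours with 5457 bases and no other annotated gene between them. Igfbp3 (chromosome 11, 7206086 to 7213923, minus strand) faced Igfbp1, which is not among the 8, across 3539 bases in the same arrangement. Igfbp4 was elsewhere on chromosome 11 (99041244 to 99054392), Igf1 on chromosome 10 (87858265 to 87937042), Igf1r on chromosome 7 (67952827 to 68233668), Igfbp6 on chromosome 15 (102144362 to 102149511) and Igfbp7 on chromosome 5 (77349240 to 77408041). Exons of Igfbp7 overlapped those of Polr2b, an RNA polymerase II subunit gene on the other strand. The counting command used no strand option, so reads of these overlapping exons could not be assigned to a strand, and the values of Igfbp7 are uncertain to that extent. No other gene of the 8 shared exonic bases with another annotated gene.

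Averaged over the 6 libraries, Igfbp4 and Igfbp7 had the highest levels of the 8 per length of exon and Igf1 the lowest, although the order changed between libraries. Levels between genes are compared as CPM of the library total per kilobase of annotated exon, which takes all isoforms of a gene together. The mean over the 6 libraries was 108 ± 54.2 CPM per kilobase for Igfbp4 (SD, n = 6) and 94.9 ± 69.7 for Igfbp7 (SD, n = 6). Igfbp6 had 46.6 ± 36.2 and Igfbp3 31.5 ± 16.7 CPM per kilobase. Below these came Igfbp2 with 12.2 ± 5.64, Igfbp5 with 8.61 ± 9.4, Igf1r with 8.18 ± 3.38 and Igf1 with 2.68 ± 1.31 CPM per kilobase. Of the 7 neighbouring pairs in this order, those from Igfbp4 to Igfbp7, Igfbp7 to Igfbp6, Igfbp6 to Igfbp3, Igfbp2 to Igfbp5 and Igfbp5 to Igf1r differed by less than the larger SD. Igfbp3 stood above Igfbp2 by 1.15 times the larger SD, in 5 of 6 libraries, and Igf1r stood above Igf1 by 1.62 times, in 6 of 6 libraries. In the controls alone Igfbp7 had the higher mean, 110 ± 78.3 CPM per kilobase against 77.4 ± 28.1 for Igfbp4 (SD, n = 3 each), and without both libraries numbered 2 it stood at 127 against 121. Igf1 was last in 4 of the 6 libraries, and Igfbp5 was last in controls 2 and 3. Igfbp4 was first or second of the 8 in each library and exceeded 93.3% to 98.6% of the 14311 tested genes per kilobase, whereas Igf1 exceeded 28.4% to 48.1%.

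**Figure D1:**
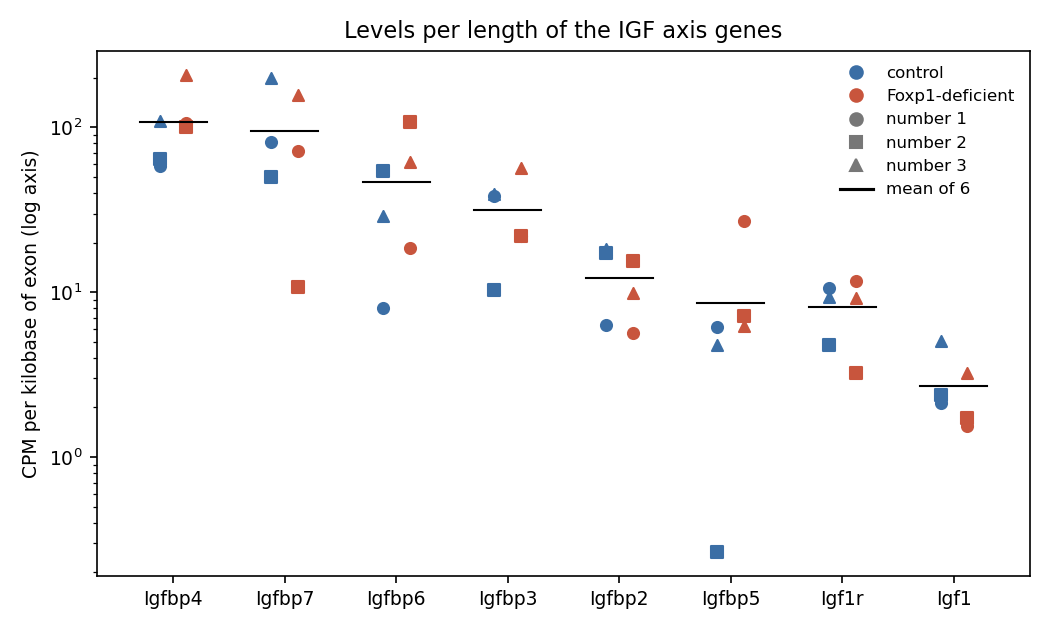
CPM per kilobase of exon (log axis) of the 8 IGF axis genes, ordered by their mean over the 6 libraries (black bar); colour gives the group and the symbol the library number. Igfbp4 and Igfbp7 lead with means of 108 and 94.9, Igf1 is last with 2.68, and the single lowest point, 0.266, is Igfbp5 in control 2.

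The makeup of the binding protein pool varied between libraries of 1 group as well as between groups. Igfbp4 took 27.4% to 32.6% of the summed CPM per kilobase of the 6 binding protein genes in the controls and 38.1% to 42.2% in the Foxp1-deficient libraries. Igfbp7 took 40.9%, 25.5% and 49.7% in the controls, against 28.7%, 4.12% and 31.2% with Foxp1 deficiency. Shares within a library are tied together, so a low Igfbp7 share raises those of the other genes, Igfbp4 included. In the libraries numbered 2, Igfbp6 took 27.7% (control) and 40.9% (Foxp1-deficient), and its share elsewhere did not exceed 12.3%. In log2 CPM, library number accounted for 37.3% (Igfbp5) to 90.8% (Igf1r) of the variance of the single genes, against a median of 78.7% over all tested genes. The share that went with genotype was 59.6% for Igfbp4, 40.1% for Igfbp5, 25.5% for Igf1, 16.7% for Igfbp6, 14.2% for Igfbp7, 6.14% for Igfbp2, 4.85% for Igfbp3 and 1.93% for Igf1r. The median over all tested genes was 5.85%, and these shares are descriptions without a test.

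Between genotypes, none of the 8 genes passed the test, and 0 of 14311 genes did in either direction (0% of genes called higher and 0% called lower). The test was edgeR's quasi-likelihood test without a block, with p-values adjusted by Benjamini-Hochberg over all genes, called below 0.05. By it, 103 genes had an unadjusted p under 0.05, none of them among the 8. Fitted log2 fold changes (Foxp1-deficient over control) were positive for 4 of the 8 and negative for 4, with a median of 0.08, against 0.03 over all genes tested. In the pairs of equal number, 3 genes had higher values in the Foxp1-deficient library of all 3 pairs (Igfbp4, Igfbp5, Igfbp6) and 3 had lower values in all (Igf1, Igfbp2, Igfbp7). Over all genes tested, 16.6% were higher and 17.5% lower in all 3 pairs.

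**Figure D2:**
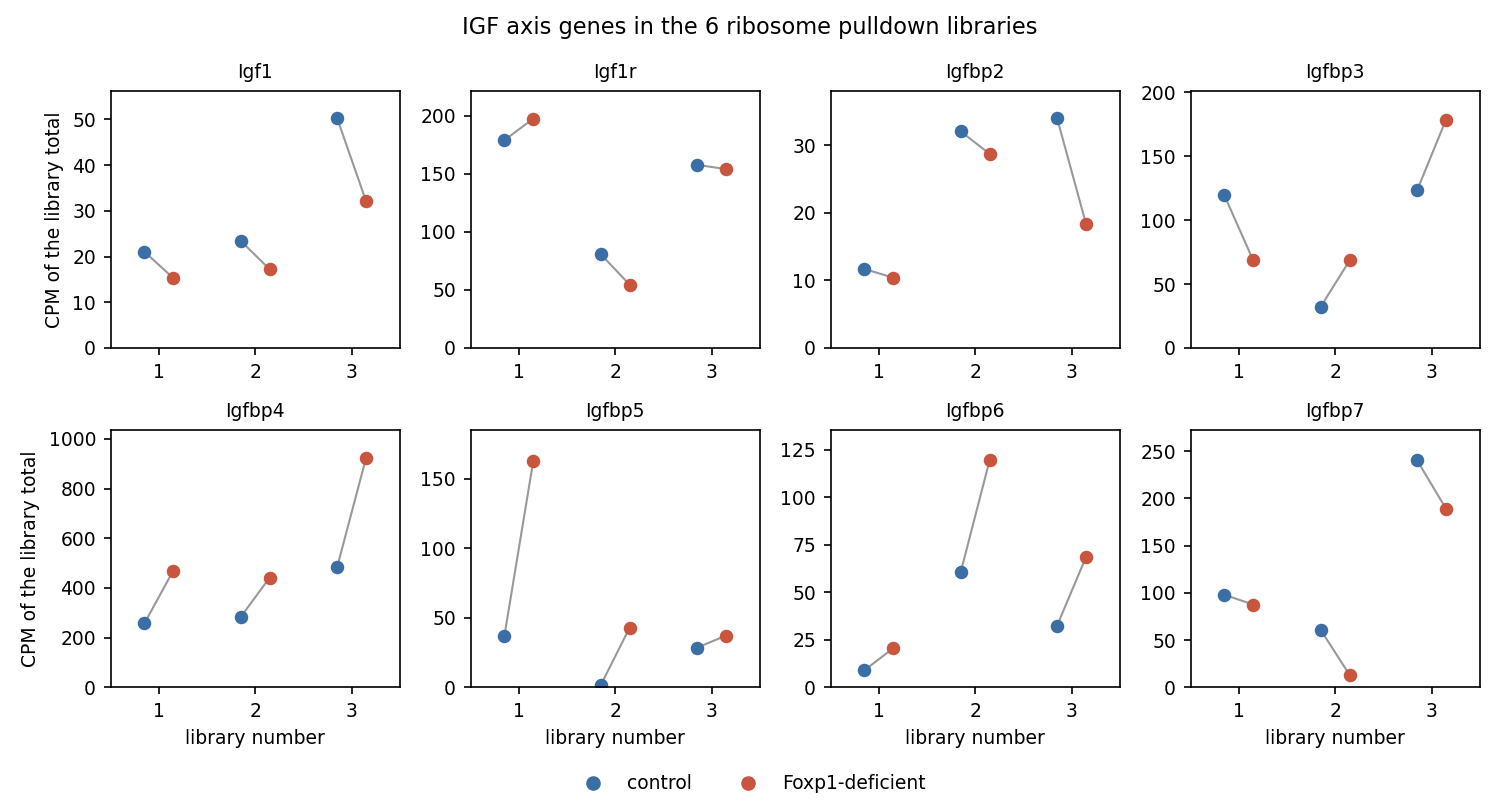
CPM of the library total (y axis, from 0, own scale for each gene) for the 8 genes in the 6 libraries; points are single libraries, coloured by group and joined for libraries of equal number (x axis). The Foxp1-deficient point lies above the control point in all 3 pairs for Igfbp4, Igfbp5 and Igfbp6 and below it in all 3 for Igf1, Igfbp2 and Igfbp7.

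Igfbp4 encodes a binding protein that chiefly restrains IGF action until the pappalysin PAPP-A cuts it. It had 257, 284 and 484 CPM in the controls, against 470, 442 and 924 CPM with Foxp1 deficiency. Foxp1-deficient 3 was the highest library, control 3 lay above Foxp1-deficient 1 and 2, and the groups overlapped on library totals. Scaled by TMM, a factor that aligns the bulk of genes between libraries, the groups did not overlap, the controls having 336 ± 92.1 CPM (SD, n = 3) and the Foxp1-deficient group 599 ± 183 CPM (SD, n = 3). Of all genes, 2.64% were higher without overlap on that scale and 2.11% lower. Within pairs 1, 2 and 3 the ratio of Foxp1-deficient to control was 1.83, 1.56 and 1.91 on library totals. The fitted log2 fold change was 0.83 (SE 0.43, 95% interval -0.16 to 1.83, unadjusted p = 0.0889, adjusted p = 0.9998, edgeR).

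Igfbp6 encodes a binding protein with a preference for IGF2. It had 8.96, 60.6 and 32.5 CPM in the controls, against 20.6, 119 and 68.6 CPM with Foxp1 deficiency. The libraries numbered 2 were the highest of both groups and the groups overlapped widely, yet the ratio within pairs 1, 2 and 3 was 2.3, 1.97 and 2.11. The log2 fold change without a block was 1.06 (SE 0.91, 95% interval -1.07 to 3.19, adjusted p = 0.9998, edgeR). It ranged from 0.13 without Foxp1-deficient library 2 to 2.00 without control library 2.

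Igfbp5 encodes a binding protein that adheres to extracellular matrix and is also cut by pappalysins. It had 37.0, 1.6 and 28.6 CPM in the controls, against 163, 42.9 and 37.2 CPM with Foxp1 deficiency. Foxp1-deficient 1 was far above the other libraries and control 2 far below them, with 18 counts. On library totals the groups were just apart, 37.0 being the highest control and 37.2 the lowest Foxp1-deficient value (2.1% of all genes were higher without overlap on that scale), and scaled by TMM they overlapped. Within pairs 1, 2 and 3 the ratio was 4.41, 26.9 and 1.3, so the size of the difference was not stable. The log2 fold change was 1.95 (SE 1.00, 95% interval -0.40 to 4.29, unadjusted p = 0.0911, adjusted p = 0.9998, edgeR), and 1.02 without Foxp1-deficient library 1.

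The replicate number was also entered as a block, because libraries of equal number deviated together in these data, though the labels state no pairing. In edgeR this left all 8 genes uncalled, as it did all 14311. The blocked log2 fold change of Igfbp6 was 1.10 (SE 0.14, 95% interval 0.73 to 1.46, unadjusted p = 5.97e-04, adjusted p = 0.359, edgeR) and that of Igfbp4 was 0.83 (SE 0.13, interval 0.50 to 1.16, unadjusted p = 0.0013, adjusted p = 0.410, edgeR). Igfbp5 had a blocked value of 2.19 (SE 0.84) and Igf1 of -0.51 (SE 0.20). DESeq2 with the block called Igfbp4 (log2 fold change 0.83, DESeq2 adjusted p = 1.31e-06), Igfbp5 (2.34, adjusted p = 0.0224) and Igfbp6 (1.10, adjusted p = 2.59e-04) higher, 3 of 8 against 1.06% of the genes to which it gave an adjusted p. Voom of limma with quality weights and the block, an alternative chosen after seeing the data, called Igfbp4 (0.87, limma adjusted p = 0.00273) and Igfbp6 (1.08, adjusted p = 0.00547), 2 of 8 against 1.26% of genes called higher. Without the quality weights it called none of the 8, against 0.0559% of genes called higher. DESeq2 without the block also called none of the 8 (0.0426% of genes higher), and so did edgeR with the block and without both libraries numbered 2 (0.183% of genes higher, 0.0131% lower). The calls of these 3 genes therefore depended on the tool as well as on the block.

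**Figure D3:**
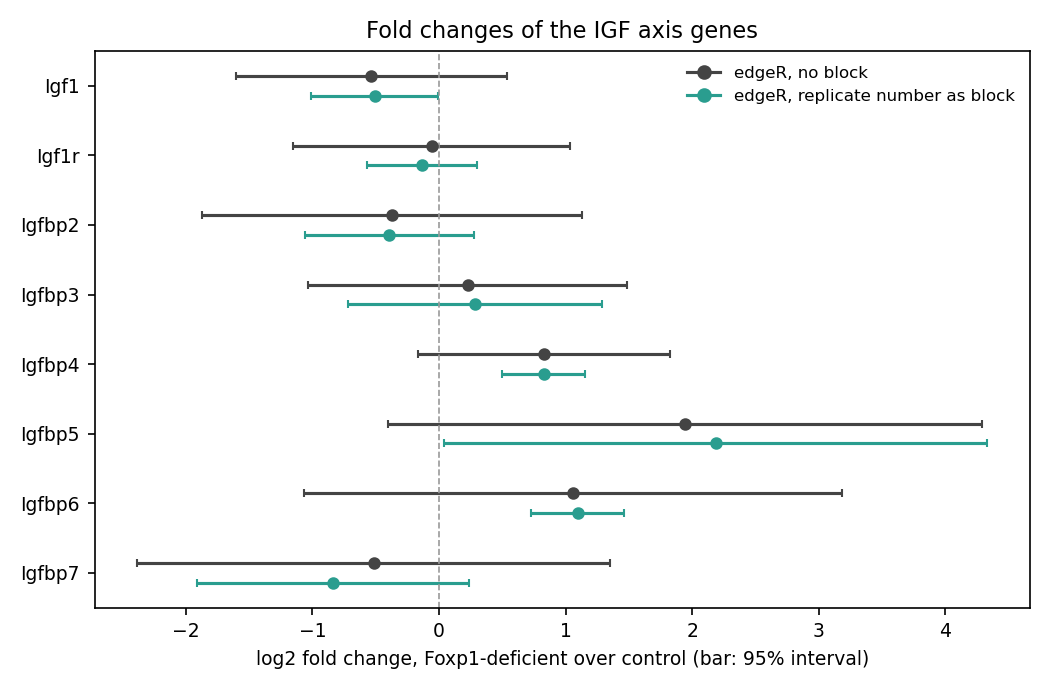
Log2 fold change of Foxp1-deficient over control (x axis) for each gene by edgeR, without a block (grey) and with the replicate number as a block (green); bars are 95% intervals before any adjustment over genes. The blocked intervals of Igfbp4 (0.50 to 1.16), Igfbp6 (0.73 to 1.46) and Igfbp5 (0.042 to 4.33) lie above 0, that of Igf1 (-1.01 to -0.0058) lies below it, and without the block every interval includes 0.

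Mesothelium is the cell layer that lines the abdominal organs, and the sum of its markers was higher in the Foxp1-deficient library of each pair, as Igfbp4, Igfbp5 and Igfbp6 were. Summed CPM of the 8 mesothelial markers were 2287 to 2960 in the controls and 3510 to 7514 in the Foxp1-deficient libraries, without overlap on library totals. Scaled by TMM the groups overlapped, control 2 having 3494 CPM and Foxp1-deficient 1 having 3334, and the sum was still higher in each pair. Of the 8 markers, 7 had a positive fitted fold change, although none passed the test. Msln, Upk3b, Upk1b, Krt19 and Krt7 were higher in each pair, whereas Wt1, Lrrn4 and Muc16 had no common direction. Between control 2 and Foxp1-deficient 2, Lrrn4 went from 96.9 to 69.7 CPM and Muc16 from 21.7 to 5.66 CPM. The rise of the sum was thus not shared by all its markers. None of the 8 was at 0 in any library. Like Igfbp6, this sum was highest in the library numbered 2 of each group, with 2960 CPM in control 2 and 7514 in Foxp1-deficient 2. Igfbp4 was instead highest in the libraries numbered 3 (484 and 924 CPM) and Igfbp5 in those numbered 1 (37.0 and 163 CPM). Igfbp5 was lowest in control 2, at 1.6 CPM. Unlike the mesothelial sum, that of the 6 smooth muscle markers was lower, at 5971 to 10995 CPM in Foxp1-deficient libraries against 11034 to 18568 in controls. On library totals the groups were just apart. Scaled by TMM they overlapped, control 3 having 9730 CPM and Foxp1-deficient 1 having 10443, and the sum was lower in each pair on both scales. Without the most abundant of the 6 genes the groups overlapped on library totals too, control 3 having 5210 CPM and Foxp1-deficient 2 having 5236. That sum was still lower in each pair. All 6 had negative fitted fold changes, none was called and none was at 0. Sums of the proximal tubule list and of the thick ascending limb and distal convoluted tubule list were also higher in each pair. For the former they were 39.3, 56.7 and 384 CPM in the controls, against 66.7, 116 and 524 with Foxp1 deficiency. For the latter they were 0, 1.24 and 186 CPM, against 1.19, 1.65 and 216. The direction of the latter in pairs 1 and 2 rested on few counts. In pair 2 these were 14 of Slc12a1 in control 2 against 16 of Pvalb in Foxp1-deficient 2. In pair 1 the largest value was 13 counts, of Umod in Foxp1-deficient 1. Without its most abundant gene the proximal tubule sum had no common direction. The part that any of these cells had in the values of Igfbp4, Igfbp5 and Igfbp6 was not tested.

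**Figure D4:**
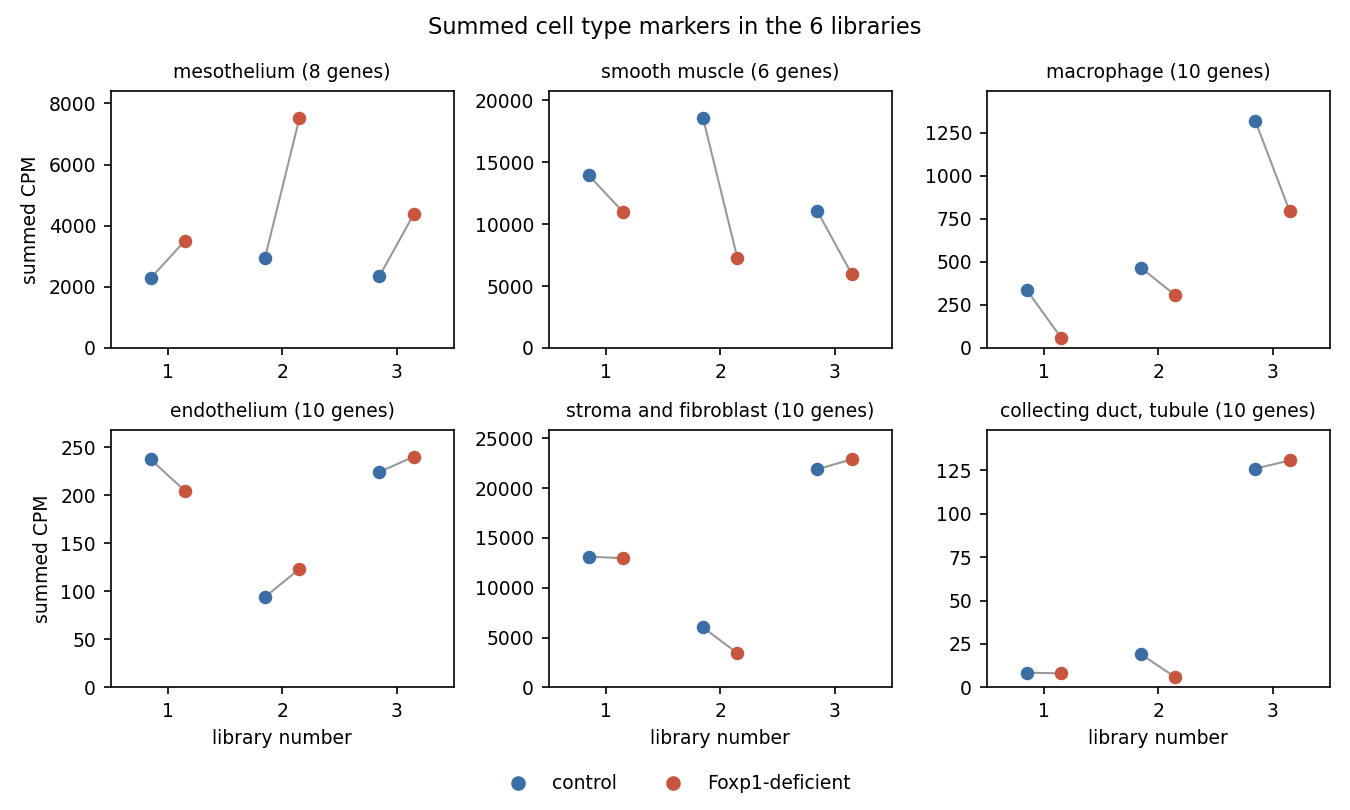
Summed CPM of 6 marker lists (y axis, from 0, own scale) in the 6 libraries, coloured by group and joined for libraries of equal number (x axis). Mesothelial sums are higher in the Foxp1-deficient library of each pair, smooth muscle and macrophage sums are lower in each, and collecting duct and tubule sums are highest in the libraries numbered 3, at 126 and 131.

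Igf1, the growth factor gene, had 21.1, 23.4 and 50.3 CPM in the controls, against 15.3, 17.2 and 32.1 CPM with Foxp1 deficiency. Control 3 was the highest library, the groups overlapped, and the ratio of Foxp1-deficient to control within pairs 1, 2 and 3 was 0.725, 0.734 and 0.639. The log2 fold change was -0.53 (SE 0.46, 95% interval -1.60 to 0.54, adjusted p = 0.9998, edgeR). Macrophages are among the cells that make IGF1, and the summed CPM of 10 macrophage markers went the same way in each pair, with 338, 466 and 1316 in the controls, against 60.5, 306 and 793 with Foxp1 deficiency. Of these 10 markers 9 had a negative fitted fold change, none was called and none was at 0. Their part in the values of Igf1 was not tested.

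Igf1r, the receptor gene, had no common direction over the pairs. It had 179, 80.9 and 158 CPM in the controls, against 198, 54.5 and 154 CPM with Foxp1 deficiency. The libraries numbered 2 were the lowest in both groups, and the remaining 4 spanned 154 to 198 CPM across both genotypes. The log2 fold change was -0.06 (SE 0.47, adjusted p = 0.9998, edgeR) and -0.14 with the block (95% interval -0.57 to 0.30), and it turned to 0.06 when both libraries numbered 2 were left out. The blocked interval allows a change of the receptor of up to 0.57 downwards and 0.30 upwards on the log2 scale.

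Igfbp2 and Igfbp7 had lower values in the Foxp1-deficient library of each pair, by amounts that varied. Igfbp2, a binding protein gene expressed widely in fetal tissue, had 11.7, 32.0 and 34.0 CPM in the controls, against 10.4, 28.7 and 18.4 CPM with Foxp1 deficiency. Its ratio within pairs 1 and 2 was 0.89 and 0.897, and only pair 3 differed more, with 0.54. The log2 fold change was -0.37 (SE 0.64, 95% interval -1.87 to 1.13, adjusted p = 0.9998, edgeR). Igfbp7, which encodes a low-affinity IGF binding protein of vessel walls, had 98.0, 60.7 and 240 CPM in the controls, against 87.6, 13.1 and 189 CPM with Foxp1 deficiency. Foxp1-deficient 2 was the lowest library by far, and the log2 fold change of -0.52 (SE 0.80, adjusted p = 0.9998, edgeR) became -0.02 without it and 0.10 without control library 3. Polr2b, which shares exonic bases with Igfbp7, had 247 raw counts in Foxp1-deficient 2 and 461 in control 2, against 1706 to 1917 in the other 4. These counts are not scaled. Total counts were also lowest in these 2 libraries, at 9710048 and 11264609, against 14281261 to 18958196 elsewhere. The part of Polr2b reads in the values of Igfbp7 was not tested.

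Igfbp3 encodes the main carrier of circulating IGF and is made by vascular and stromal cells. It had 119, 32.3 and 123 CPM in the controls, against 68.5, 68.5 and 179 CPM with Foxp1 deficiency. It was lower in pair 1 and higher in pairs 2 and 3, with ratios of 0.574, 2.12 and 1.45, and the groups overlapped. The log2 fold change was 0.23 (SE 0.54, 95% interval -1.03 to 1.48, adjusted p = 0.9998, edgeR) and -0.0087 when both libraries numbered 2 were left out. The summed CPM of 10 endothelial markers was lower in pair 1 and higher in pairs 2 and 3 as well, with 237, 94.2 and 224 in the controls, against 204, 123 and 240 with Foxp1 deficiency. That direction rested on Tek, an angiopoietin receptor gene and the most abundant of the list, which was named after its values were seen. Without Tek the sums were 124, 45.4 and 151 CPM in the controls, against 70.4, 31.7 and 104 with Foxp1 deficiency, lower in each pair, unlike Igfbp3. Of the 10 markers, 3 had positive and 7 negative fitted fold changes, none was called, and Cdh5, Tie1, Emcn, Plvap and Flt1 had no count in at least 1 library. Their part in the values of Igfbp3 was not tested.

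For each of the 8 genes, the genes of most similar profile were taken as those with the highest Pearson r of log2 CPM over the 6 libraries among 8981 genes of at least 10 CPM on average. With 6 libraries that share depth and composition by number, a high r is easily reached and is given as a description only. Clip1 (r = 0.989) and C3 (r = 0.982) were nearest to Igfbp4, and 33 genes had r over 0.9. Bmp1 (r = 0.994) and Plekhm2 (r = 0.987) were nearest to Igfbp6, with 255 genes over 0.9, and Isy1 (r = 0.994) and Impdh1 (r = 0.987) to Igfbp5, with 165. C3, the complement component gene, had 27.4, 46.5 and 67.6 CPM in the controls, against 65.1, 75.7 and 217 CPM with Foxp1 deficiency. Igf1r had 1696 genes with r over 0.9, led by Ankrd50 (r = 0.999) and Socs6 (r = 0.998), the most of the 8, whereas Igf1 had 25, led by Rps3a3 (r = 0.973) and Mmp17 (r = 0.968). Mthfsd and Atoh8 were nearest to Igfbp2 (r = 0.987 and 0.982), Cenpf and Pip4k2c to Igfbp3 (r = 0.988 and 0.978), and Snx3 and Lpcat2 to Igfbp7 (r = 0.996 and 0.995).

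Other genes of the pathway came from lists, and none of their members passed the edgeR test with or without the block (0% of all genes called). Of 9 further ligand, receptor and binding protein genes, 4 could be tested, with 2 positive and 2 negative fitted fold changes and a median of -0.03. Igf2, the fetal ligand gene, was the dominant ligand, with 2299 to 5698 CPM, and per kilobase it exceeded Igf1 by 114 to 532 times in the 6 libraries. Its log2 fold change was -0.06 (SE 0.48). Igf2r, whose product clears IGF2, had 725, 75.3 and 480 CPM in the controls, against 825, 72.8 and 386 CPM with Foxp1 deficiency, with the libraries numbered 2 far below the rest in both groups. Insr, the insulin receptor gene, had 12.5 to 41.4 CPM (log2 fold change 0.27, SE 0.44), and Insrr, a related receptor gene, had at most 4.88 CPM (-2.08, SE 1.48). Insrr had 1.33, 4.88 and 1.43 CPM in the controls, against 0.773, 0 and 1.32 CPM with Foxp1 deficiency, so the groups were just apart. On library totals 2.07% of all genes were lower without overlap. The fold change of Insrr depends on the prior count because Foxp1-deficient 2 had no count. Igfbp1 had at most 1.27 CPM and no count in the libraries numbered 2, and Ins1 and Ins2, the insulin genes, had no count in any library; these 3 were named after their values were seen.

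Among 13 genes for proteases of binding proteins and for stanniocalcins, 12 were tested, 5 with positive and 7 with negative fitted fold changes and a median of -0.08. The 4 of lowest p were Mmp9 (log2 fold change -1.30, SE 1.07), Mmp2 (-0.60, SE 0.52), Htra3 (1.33, SE 1.38) and Mmp14 (0.25, SE 0.37), which encode 3 matrix metalloproteinases and the serine protease HTRA3. Ctsd, which encodes the lysosomal protease cathepsin D, was the most abundant of the list per kilobase, with 104 to 677 CPM (-0.11, SE 0.87). Mmp2 had 311, 184 and 426 CPM in the controls, against 210, 70.2 and 347 CPM with Foxp1 deficiency, lower in each pair. Pappa and Pappa2, the pappalysin genes whose products cut the proteins of Igfbp4 and Igfbp5, were named after their values were seen. Pappa had 76.5, 3.02 and 41.6 CPM in the controls, against 67.8, 2.16 and 37.1 CPM with Foxp1 deficiency, and Pappa2 83.0, 26.3 and 304 against 60.0, 7.21 and 246 CPM. Both were lower in each pair, with log2 fold changes of -0.18 (SE 1.19) and -0.44 (SE 1.12) that lay within the spread between libraries. Of the 12 genes, 3 were lower in each pair (Mmp2, Pappa, Pappa2) and 3 were higher in each pair (Htra3, Mmp14 and the metalloproteinase gene Adam12, the last named after its values were seen). For comparison, 17.5% of all genes tested were lower and 16.6% higher in each pair.

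**Figure D5:**
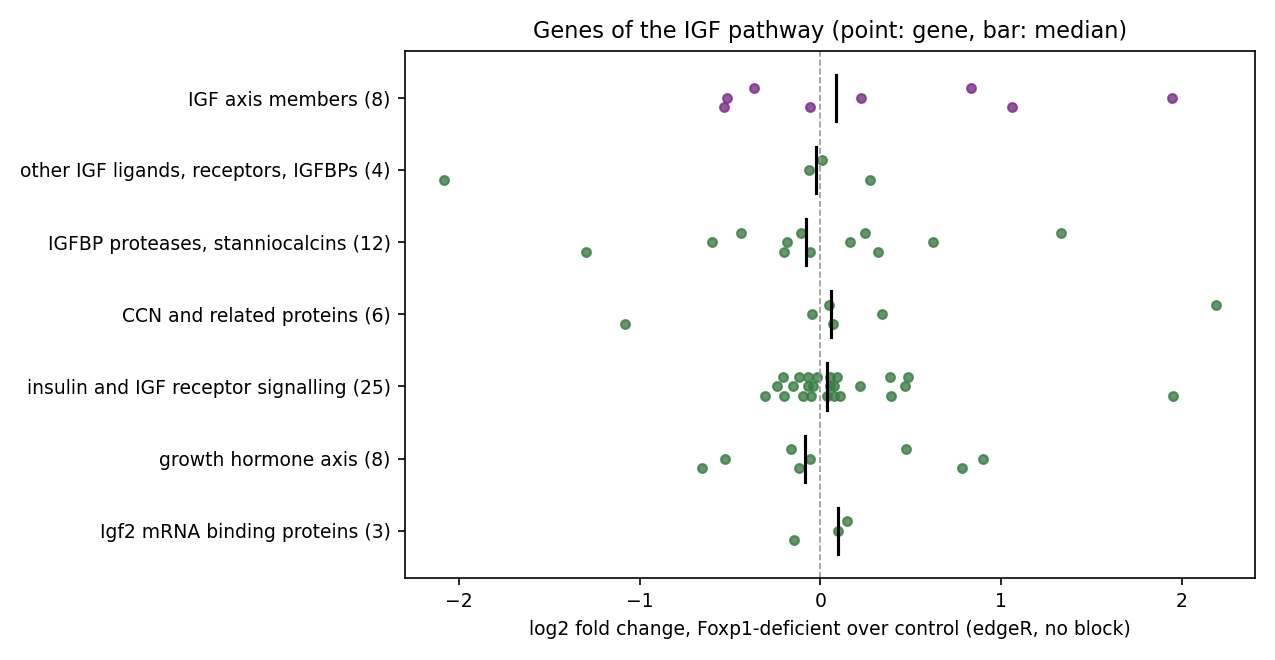
Log2 fold change of Foxp1-deficient over control (x axis, edgeR without a block) for the tested genes of each list (number in parentheses); each point is a gene and the black bar is the list's median. The medians lie between -0.09 and 0.10, and Igfbp5 at 1.95 is the highest of the 8 members.

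CCN and other proteins with an IGFBP-type domain at their N-terminus had 6 of 9 genes tested, 4 positive and 2 negative, with a median of 0.06. Nov, a CCN gene, had 3.43, 0 and 3.46 CPM in the controls, against 12.2, 9.06 and 7.28 CPM with Foxp1 deficiency, without overlap. On library totals 2.1% of all genes were higher without overlap. The log2 fold change of Nov was 2.19 (SE 1.27), a value that depends on the prior count because control 2 had none. Esm1, an endothelial proteoglycan gene, had no count in the libraries numbered 2 (-1.08, SE 1.95), and Wisp1, another CCN gene, had 18.6 to 513 CPM (0.34, SE 0.96). Cyr61, the most abundant of the list per kilobase, had 322 to 907 CPM and a log2 fold change of -0.05 (SE 0.44). Downstream of the receptors, all 25 signalling genes were tested, 13 positive and 12 negative, with a median of 0.03, equal to that of all genes tested. Mtor, the growth kinase gene, had 35.4, 15.6 and 43.6 CPM in the controls, against 47.4, 26.0 and 57.1 CPM with Foxp1 deficiency, higher in each pair (log2 fold change 0.48, SE 0.41). Rictor, a subunit gene of an MTOR complex, was also higher in each pair (0.39, SE 0.67). Of the 25 genes, 5 were higher and 1 was lower in each pair, against 16.6% and 17.5% of all genes tested. Grb14, a receptor adaptor gene, had at most 6.39 CPM (1.95, SE 1.41), and Ptpn1, a phosphatase gene, had a log2 fold change of -0.20 (SE 0.35). Grb10, which encodes an adaptor that dampens IGF receptor signals, was the most abundant of the 25 per kilobase, with 722 to 1652 CPM and a log2 fold change of 0.09 (SE 0.45).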

How the data were processed

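Raw fragment counts per gene symbol were deposited by the authors for 6 ribosome pulldown libraries. Per the file headers featureCounts 1.5.1 counted read pairs over the exons of each gene name (mm10, annotation 86), and its command set neither strand nor multi-mapping. The header also gives exon lengths, used for CPM per kilobase. Per the submitters' processing notes, Trimmomatic, STAR and SAMtools were among the tools, with no role or settings stated there. All 48587 rows have a gene name, and each of the 6 count columns matched 1 sample title.

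Counts were fitted with edgeR 4.0.16 in R 4.3.3 (TMM, filterByExpr, quasi-likelihood F test, two-sided), which kept 14311 genes. SE is the fold change divided by the root of F, and 95% intervals use its degrees of freedom. Log2 CPM used a prior count of 0.5. No 2 libraries of a group agreed within counting noise. Libraries of equal number were taken as pairs from the data, not from the labels, since their deviations from the group means correlated at r = 0.50, 0.46 and 0.56. Alternatives were other size factors, other low-count filters, DESeq2 1.42.0, limma 3.58.1, the replicate block and libraries left out. The procedures were also run on simulated counts, a check of the code on which no result here draws. The genes, lists and markers were chosen with earlier results of these data known. The naming rule took the 8 genes, Foxp1, up to 4 genes of lowest p and the most abundant gene of each list, and the 2 nearest profiles per gene. Genes overlapping a member and markers at 0 are also named, and other pathway genes are marked in the text as named after their values were seen. Cdh16 and the 8 mesothelial markers were likewise named after their values were seen.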

Additional observations from a re-analysis of the deposited data

How the results depend on the processing

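Over 19 alternatives, 138 of 152 fold changes of the 8 genes kept their direction and their side of the threshold, 5 passed the threshold only there, and 9 turned. Other size factors and low-count filters turned none. The count of genes called went from 0 to 6 in DESeq2, 171 in DESeq2 with the replicate block (3 of the 8: Igfbp4 0.83, Igfbp5 2.34, Igfbp6 1.10), 8 in limma-voom with the block, 244 in limma-voom with quality weights and the block (2 of the 8: Igfbp4 0.87, Igfbp6 1.08), and 30 in edgeR with the block and without both libraries numbered 2. In edgeR with the replicate block and all libraries it stayed at 0, with 762 genes at an unadjusted p under 0.05, among them 4 of the 8; limma-voom with quality weights and no block also called 0, with 330. Without the libraries numbered 2, Igf1r was 0.061 and Igfbp3 -0.0087, and 0.048 and -0.13 with the block. The cause was not tested.

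With each library left out in turn, edgeR without a block called 0 genes each time and 0 of the 8. The log2 fold changes then ranged from -0.80 to -0.16 for Igf1, -0.44 to 0.26 for Igf1r, -1.02 to -0.027 for Igfbp2, -0.23 to 0.46 for Igfbp3, 0.55 to 1.05 for Igfbp4, 1.02 to 2.55 for Igfbp5, 0.13 to 2.00 for Igfbp6 and -1.34 to 0.10 for Igfbp7. Igf1r turned without control 1 or Foxp1-deficient 2, Igfbp3 without control 2 or Foxp1-deficient 3, and Igfbp7 without control 3. TMM scaling ended the separation of the mesothelial and smooth muscle sums. Leaving out the most abundant smooth muscle gene also ended that of the smooth muscle sum. Leaving out Tek turned the endothelial sum in pairs 2 and 3. These checks of the sums were chosen after seeing the data.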

Other observations

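Genes of the growth hormone axis, through which the liver and other organs are driven to make IGF1, were all 8 tested, with 3 positive and 5 negative fitted fold changes and a median of -0.09. Ghr, the receptor gene and the most abundant of the list per kilobase, had 40.7 to 156 CPM. Socs2, a feedback inhibitor gene induced by growth hormone, had 35.4, 24.5 and 33.9 CPM in the controls, against 23.5, 8.86 and 29.1 CPM with Foxp1 deficiency, lower in each pair like Igf1 (log2 fold change -0.66, SE 0.43, adjusted p = 0.9998, edgeR). Cish (0.78, SE 0.66), Socs3 (0.47, SE 0.68) and Socs1 (-0.53, SE 0.78) had no common direction. In this list 1 gene was lower and 1 higher in each pair, against 17.5% and 16.6% of all genes tested. The 3 genes for proteins that bind Igf2 mRNA, Igf2bp1 (0.10, SE 0.48), Igf2bp2 (-0.15, SE 0.41) and Igf2bp3 (0.15, SE 0.93), are oncofetal genes, and their highest values were 243, 237 and 108 CPM.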
